A study of Mus musculus with 21 samples.

Results

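Podocyte fractions of mice treated with MCC950, an inhibitor of the NLRP3 inflammasome, were compared with those of young mice. The comparison takes every library whose label names it as NLRP3 inhibitor-treated or as young and untreated, which gives 8 and 6 libraries, 14 of the 21 in the series. The saline-treated libraries of the older age were not used, so the comparison describes what differed from young mice at the end of the treatment and not what the treatment changed. The MCC950 mice received 10 mg/kg into the peritoneum 2 times a week for 6 weeks from 18 months of age and were 19.5 months old at collection, and the young mice were 4 months old and had no treatment. All were male C57BL/6J mice with no genetic change, and each library is 1 mouse. The podocyte fraction is what magnetic beads with antibodies to nephrin held back from digested kidney cortex, so it is an enrichment and not a pure cell type. The methods place control mice of that age in the laboratory's tissue archives, without saying whether these libraries were made from them. The labels give 6 young libraries, which is more than the archived control mice of 4 months that the methods list. Age, drug and injections changed together and cannot be told apart here. Nor can any difference in collection or library preparation between the groups.

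Podocytes are the epithelial cells that wrap the capillaries of the glomerulus. Their foot processes are joined by the slit diaphragm, a junction built on nephrin, and rest on a basement membrane that they share with the endothelium on its other side. They divide little, and they send VEGF and angiopoietins to the endothelium and the mesangium. NLRP3 is a cytosolic sensor that, with the adaptor ASC (Pycard) and caspase-1, matures interleukin-1β and interleukin-18, and its expression is highest in myeloid cells.

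Depth differed between the groups. Young libraries held 27375870 to 36827823 counts and MCC950 libraries 35440472 to 58247271. Genes of the mitochondrial genome took 51.5% to 80.4% of the counts in young libraries (mean 69.3% ± 9.82, SD, n = 6) and 49.9% to 63.7% after MCC950 (56.4% ± 4.46, SD, n = 8), with the lowest young share in replicate 1 (exact two-sided permutation test of the means, p = 0.00999). Outside those genes, 5804891 to 13269290 counts were left in young libraries and 16118731 to 28569185 in MCC950 libraries, with no overlap (p = 0.000666 in the same exact test, which can give no smaller value with 6 against 8 libraries). Levels are given as CPM, the counts of a gene relative to the library total, scaled by TMM, a factor per library that sets most genes level, and they compare 1 gene between libraries, not genes with each other.

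Of 15817 genes with enough counts, 2526 (16.0%) were higher and 2556 (16.2%) lower in the MCC950 libraries at an adjusted p under 0.05 (edgeR quasi-likelihood test, Benjamini-Hochberg). The median log2 fold change of all genes tested was 0.05. In 413 genes (2.61%) every MCC950 library lay above every young library, and in 851 (5.38%) every one lay below. At the study's own threshold, fold changes over 2 at an unadjusted p under 0.05, 535 genes (3.38%) were higher and 685 (4.33%) lower. Against these shares, more than 0.5 of the members were lower in the 4 podocyte lists and in those of the basement membrane, vascular growth factors, endothelium, mesangium, collecting duct and mitochondrially encoded proteins, and more than 0.5 were higher in the immunoglobulin, ribosomal protein and nuclear respiratory chain lists. The plot of fold changes by list shows the tested members of the main lists. With the podocyte marker level as a covariate, 5 genes stayed higher and 8 were lower. That level did not overlap between the groups, so such a fit can hardly separate it from the group.

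**Figure D1:**
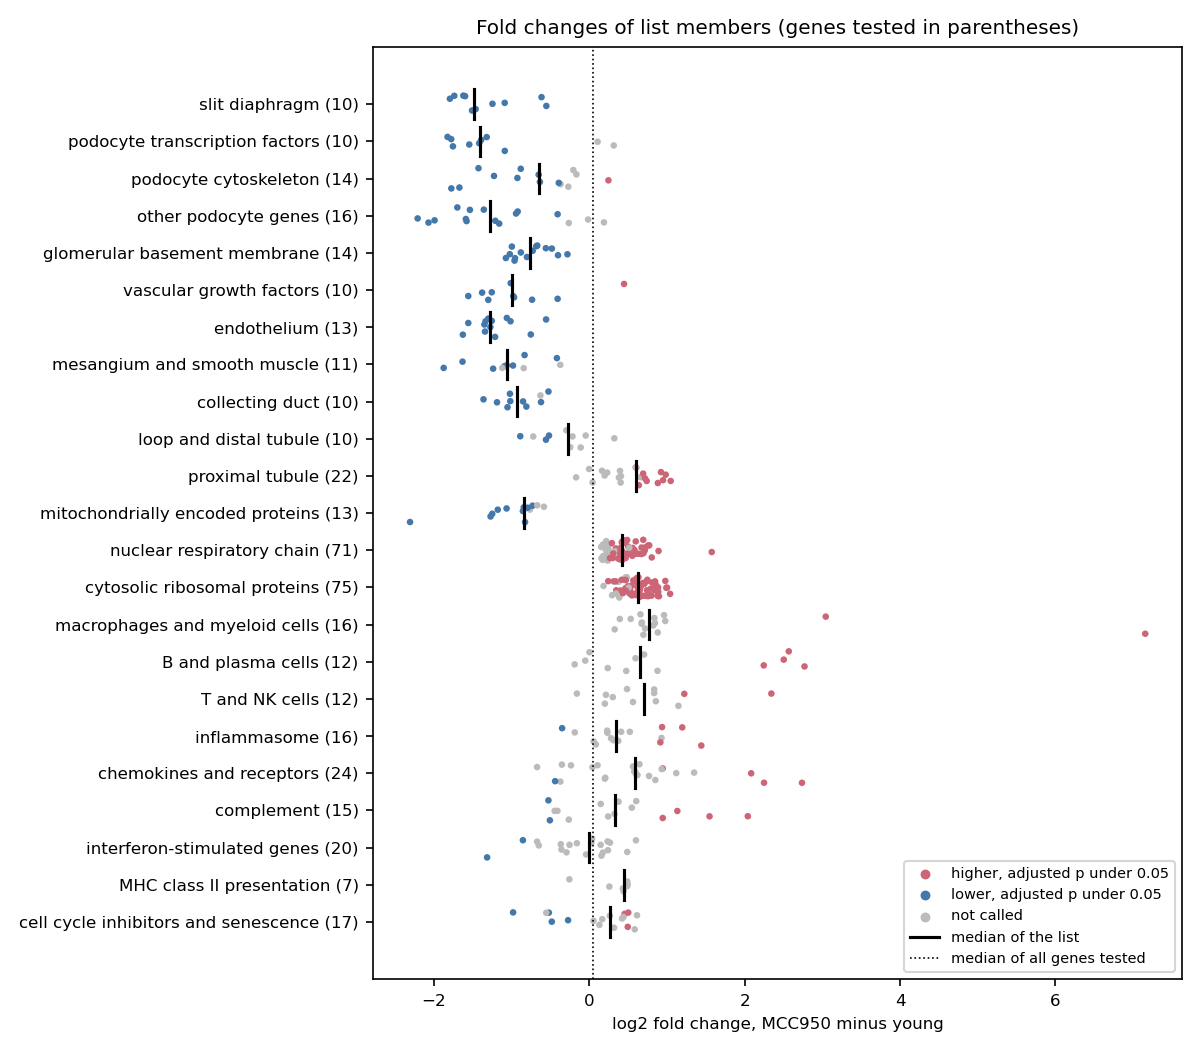
Each point is 1 gene of a list, placed by its log2 fold change (MCC950 minus young, horizontal axis) and coloured by whether it was called at an adjusted p under 0.05, with a black bar at the median of the list and a dotted line at the median of all 15817 genes (0.05). The podocyte, endothelial and mesangial lists lie left of the line, with medians between -1.49 (slit diaphragm) and -0.64 (podocyte cytoskeleton), and the 75 ribosomal protein genes lie right of it with a median of 0.62.

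All 10 genes of the slit diaphragm were lower in the MCC950 libraries, with a median log2 fold change of -1.49 beside 0.05 over all genes, and in 4 of them the groups did not overlap. Nphs1, which encodes nephrin itself and so the protein that the antibodies bind, ranged from 25.5 to 68.6 CPM in the young libraries (median 44.1) and from 7.51 to 24.7 CPM in the MCC950 libraries (median 12.6). Every MCC950 library lay under every young one (log2 fold change -1.62 ± 0.29, adjusted p = 8.78e-04). Crb2, a polarity protein of the slit diaphragm, ranged from 3.93 to 13.9 CPM in the young libraries (median 10.0) and from 1.57 to 5.11 CPM in the MCC950 libraries (median 2.90), and the groups overlapped (log2 fold change -1.60 ± 0.28, adjusted p = 8.01e-04). Trpc6, the calcium channel at the slit, had low counts, with 0.242, 0.425 and 0.795 CPM (lowest, median and highest, in that order throughout) in young libraries against 0.0896, 0.149 and 0.268 CPM after MCC950 (log2 fold change -1.74 ± 0.33, adjusted p = 0.00146). Kirrel, the partner of nephrin in the junction, differed by a similar size (log2 fold change -1.51 ± 0.27, adjusted p = 9.71e-04), as did Plekhh2 (log2 fold change -1.46 ± 0.22, adjusted p = 2.48e-04). The smallest difference was that of Cd2ap, the adaptor that links nephrin to actin, and it was also the one with the least spread: its libraries ranged from 63.1 to 70.2 CPM in the young libraries (median 66.5) and from 41.3 to 50.1 CPM in the MCC950 libraries (median 45.1) (log2 fold change -0.55 ± 0.06, adjusted p = 3.71e-05). So Cd2ap separated the groups completely at a 1.47-fold difference, while Trpc6, Crb2, Kirrel and Plekhh2 overlapped at larger ones.

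The promoter of Nphs1 is shown because its product is what the antibodies select. The 100 bases before and 10 after 1 annotated start (GRCm38.p6, RefSeq, chr7:30459958-30460067, + strand) hold a purine-rich stretch and none of the 4 motifs that were searched. The gene as annotated begins upstream of this window, at chr7:30458207.
Nphs1: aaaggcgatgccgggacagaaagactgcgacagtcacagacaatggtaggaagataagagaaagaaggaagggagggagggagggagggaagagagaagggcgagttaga

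Of 10 transcription factors of podocytes, 8 were lower and none was higher (median -1.41). Wt1, the zinc finger factor required for podocyte identity, ranged from 10.6 to 29.6 CPM in the young libraries (median 20.2) and from 3.92 to 8.32 CPM in the MCC950 libraries (median 5.14), without overlap (log2 fold change -1.78 ± 0.26, adjusted p = 2.08e-04). Tcf21, a bHLH factor of the same network, had 4.23, 9.86 and 15.5 CPM in young libraries against 1.98, 3.57 and 5.09 CPM after MCC950 (log2 fold change -1.55 ± 0.28, adjusted p = 0.00102). Foxc2 and Foxd1, forkhead factors, had log2 fold changes of -1.42 and -1.76 (adjusted p = 0.00109 and 0.00256). Lmx1b, the LIM homeodomain factor mutated in nail-patella syndrome, was near the limit of detection, with 0, 1.05 and 1.59 CPM in young libraries against 0.0198, 0.258 and 0.625 CPM after MCC950 (log2 fold change -1.83 ± 0.56, adjusted p = 0.0223), and this call was lost without young replicate 3 (adjusted p = 0.0636). A transcript that begins at the start of Lmx1b and runs the other way, C130021I20Rik, fell further (log2 fold change -2.21 ± 0.30, adjusted p = 1.41e-04). The 2 genes overlap at chr2:33641193-33641208 (GRCm38), and since the strand setting of the counting is not given in the sources used here, reads of that overlap cannot be told apart.

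Klf15, a zinc finger factor also expressed in tubules, ranged from 21.2 to 35.3 CPM in the young libraries (median 26.4) and from 21.5 to 45.7 CPM in the MCC950 libraries (median 33.9), so that the groups overlapped, and did not pass the test (log2 fold change 0.32 ± 0.16, adjusted p = 0.136). It passed as higher without MCC950 replicate 7.

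Among 14 genes of the podocyte cytoskeleton and its membrane anchors, 9 were lower and 1 was higher. Podxl, the sialomucin podocalyxin that keeps foot processes apart, had the largest fall and ranged from 359 to 829 CPM in the young libraries (median 640) and from 136 to 267 CPM in the MCC950 libraries (median 161), without overlap (log2 fold change -1.78 ± 0.22, adjusted p = 7.59e-05). Synpo, the actin organiser of foot processes, had 108, 169 and 240 CPM in young libraries against 48.5, 56.8 and 88.0 CPM after MCC950 (log2 fold change -1.43 ± 0.20, adjusted p = 1.51e-04), again without overlap. Ddn, dendrin, behaved like it (log2 fold change -1.67 ± 0.25, adjusted p = 2.40e-04), and the intermediate filament gene Nes fell less (log2 fold change -0.93 ± 0.19, adjusted p = 0.00205). Actn4, the α-actinin of foot processes, did not pass the test (log2 fold change -0.17). Ezr, the linker of podocalyxin to actin that tubular brush borders also use, was the only one higher (log2 fold change 0.25 ± 0.09, adjusted p = 0.0412), and this was lost when any of 10 of the 14 libraries was left out.

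The other podocyte genes gave 13 lower and 0 higher of 16 (median -1.28). Thsd7a, a membrane protein at the foot of the slit diaphragm and a target antigen in membranous nephropathy, had the largest fall of the podocyte lists: it ranged from 19.4 to 47.4 CPM in the young libraries (median 30.7) and from 3.93 to 11.9 CPM in the MCC950 libraries (median 5.61) (log2 fold change -2.21 ± 0.28, adjusted p = 8.60e-05). Robo2, the receptor of SLIT ligands that binds the nephrin complex, had 7.01, 10.6 and 14.98 CPM in young libraries against 1.57, 2.52 and 5.04 CPM after MCC950 (log2 fold change -1.99 ± 0.25, adjusted p = 8.41e-05). The semaphorins Sema3e and Sema3g, secreted guidance proteins, had log2 fold changes of -2.07 and -1.54 (adjusted p = 2.21e-04 and 4.70e-04). Plce1, the phospholipase whose loss causes nephrotic syndrome, fell by 1.59 on the log2 scale without overlap. Cdkn1c, the cell cycle inhibitor p57 that marks mature podocytes, ranged from 16.7 to 68.05 CPM in the young libraries (median 43.0) and from 11.2 to 22.2 CPM in the MCC950 libraries (median 15.7) (log2 fold change -1.36 ± 0.26, adjusted p = 0.00161), and Pla2r1, the main antigen of membranous nephropathy, fell less (log2 fold change -0.92 ± 0.19, adjusted p = 0.00255). Htra1, Bmp7 and Nupr1 did not pass the test (log2 fold changes -0.02, 0.19 and -0.26). Over the podocyte lists, the falls that passed the test ran from 0.39 (Pdlim2) to 2.21 (Thsd7a) on the log2 scale. Why their sizes differed was not tested. Young replicates 1, 5 and 6 were the 3 lowest young libraries for Nphs1, Podxl, Wt1, Synpo, Thsd7a and Robo2, and MCC950 replicates 2 and 3 the highest of their group. In a bulk fraction, fewer podocytes and less RNA of these genes per podocyte cannot be told apart.

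**Figure D2:**
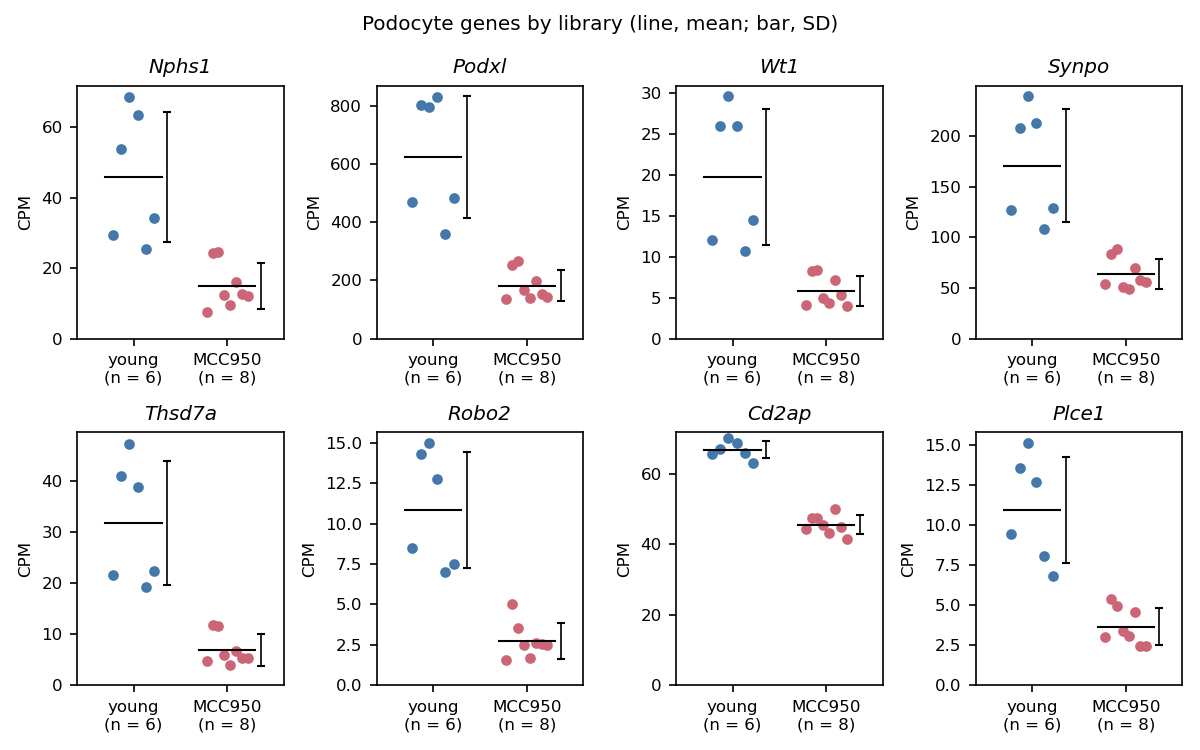
Each point is 1 library, with CPM on the vertical axis from 0, young libraries in blue and MCC950 libraries in red, a line at the mean and a bar of 1 SD. Podxl, Wt1, Nphs1, Synpo, Thsd7a, Robo2, Plce1 and Cd2ap lie lower in all 8 MCC950 libraries than in any young one, and the spread is narrowest for Cd2ap.

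The basement membrane list was lower throughout, 14 of 14, with a median of -0.77 and no overlap in 6. Hspg2, the heparan sulfate proteoglycan perlecan, fell most and ranged from 49.2 to 81.4 CPM in the young libraries (median 64.1) and from 25.9 to 39.1 CPM in the MCC950 libraries (median 28.9) (log2 fold change -1.07 ± 0.12, adjusted p = 3.76e-05). Lamb2, the β chain of the laminin of the mature glomerular membrane, had 47.9, 66.9 and 80.1 CPM in young libraries against 23.7, 31.4 and 44.9 CPM after MCC950 (log2 fold change -1.02 ± 0.15, adjusted p = 2.31e-04), and Nid1, nidogen, which ties laminin to collagen, fell alike (log2 fold change -0.997 ± 0.18, adjusted p = 8.74e-04). The α5, α3 and α4 chains of type IV collagen, which podocytes assemble into 1 network, differed by -0.96, -0.80 and -0.48 on the log2 scale (adjusted p = 4.11e-04, 0.00181 and 0.0275), and the call of Col4a4 was lost without young replicate 2, young replicate 3 or MCC950 replicate 4. These are long transcripts. With the trend on transcript length removed (described with the ribosomal genes), 10 of the 14 were called and the median was -0.56.

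Npnt, nephronectin, the podocyte ligand of mesangial integrin α8, ranged from 70.8 to 157 CPM in the young libraries (median 102) and from 36.3 to 59.2 CPM in the MCC950 libraries (median 45.2) (log2 fold change -1.21 ± 0.15, adjusted p = 7.66e-05). Its receptor gene Itga8 was lower too (log2 fold change -1.06 ± 0.23, adjusted p = 0.00344).

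Of 10 genes of the vascular growth factors and their receptors, 9 were lower and 1 higher. Among the ligands, Vegfa, which podocytes supply to the glomerular endothelium, ranged from 172 to 260 CPM in the young libraries (median 206) and from 115 to 235 CPM in the MCC950 libraries (median 154) (log2 fold change -0.41 ± 0.15, adjusted p = 0.0454), and leaving out any of 10 libraries ended that call. Angpt2, the antagonist ligand of TIE2, had 10.0, 16.5 and 22.5 CPM in young libraries against 4.46, 6.14 and 9.55 CPM after MCC950 (log2 fold change -1.38 ± 0.18, adjusted p = 1.01e-04). Vegfb, a ligand of VEGFR1, was the one that rose, without overlap (log2 fold change 0.45 ± 0.11, adjusted p = 0.00525), a call lost with the length trend removed (adjusted p = 0.0947). All 4 receptor genes of the list (Tek, Kdr, Flt1 and Nrp1) separated the groups completely. Tek, which encodes TIE2, ranged from 23.7 to 47.8 CPM in the young libraries (median 38.9) and from 10.4 to 20.7 CPM in the MCC950 libraries (median 11.96) (log2 fold change -1.56 ± 0.17, adjusted p = 3.52e-05), Kdr, VEGFR2, had a log2 fold change of -1.30, and Flt1, VEGFR1, one of -1.26 (adjusted p = 3.00e-04 and 4.10e-05).

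The receptors moved with the other endothelial genes. All 13 endothelial markers were lower (median -1.27), 10 of them without overlap. Ehd3, which among kidney endothelia marks that of the glomerulus, ranged from 128 to 301 CPM in the young libraries (median 253) and from 41.9 to 114 CPM in the MCC950 libraries (median 78.6) (log2 fold change -1.63 ± 0.22, adjusted p = 1.41e-04). Cdh5, VE-cadherin, had 36.0, 56.4 and 64.4 CPM in young libraries against 15.2, 18.6 and 32.2 CPM after MCC950 (log2 fold change -1.35 ± 0.17, adjusted p = 7.66e-05). Plvap, the diaphragm protein of fenestrae outside the mature glomerulus, differed least (log2 fold change -0.56 ± 0.15, adjusted p = 0.0112). In the mesangial and smooth muscle list 8 of 11 were lower. Myh11, smooth muscle myosin, ranged from 22.1 to 35.3 CPM in the young libraries (median 28.9) and from 3.79 to 12.8 CPM in the MCC950 libraries (median 8.15) (log2 fold change -1.88 ± 0.27, adjusted p = 2.00e-04), Acta2, smooth muscle actin, had 26.6, 32.4 and 43.1 CPM in young libraries against 4.39, 11.6 and 18.1 CPM after MCC950 (log2 fold change -1.63 ± 0.27, adjusted p = 5.44e-04), and Pdgfrb, the PDGF receptor of mesangium and pericytes, fell as well (log2 fold change -1.24 ± 0.20, adjusted p = 5.01e-04). Ren1, renin of the juxtaglomerular cells, varied widely among MCC950 libraries (9.67, 14.5 and 16.4 CPM in young libraries against 1.00, 7.05 and 16.9 CPM after MCC950) and did not pass the test (adjusted p = 0.153).

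The marker levels of the cell types show these shifts library by library. As the mean log2 CPM of each list, podocyte markers were at 5.13 to 6.20 in young and 3.94 to 4.87 in MCC950 libraries, endothelial markers at 5.54 to 6.30 in young and 4.50 to 5.32 in MCC950 libraries and mesangial and smooth muscle markers at 4.06 to 4.49 in young and 2.54 to 3.63 in MCC950 libraries, and in none of these lists did the groups overlap. Macrophage and myeloid markers were at 3.73 to 5.72 in young and 5.03 to 7.02 in MCC950 libraries, and 6 of the 8 MCC950 libraries lay above every young library, of which replicate 1 was the lowest. No member of a cell type list was at 0 in every library. The 15 podocyte markers summed to 1011 to 2141 CPM in young and 491 to 812 CPM in MCC950 libraries, and those of the proximal tubule summed to 3237 to 12862 CPM in young and 5181 to 13249 CPM in MCC950 libraries, so tubular RNA was part of each fraction. Young replicate 1 had the highest proximal tubule and the lowest macrophage level of the young libraries. How far the shares of cells account for the gene differences was not tested.

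**Figure D3:**
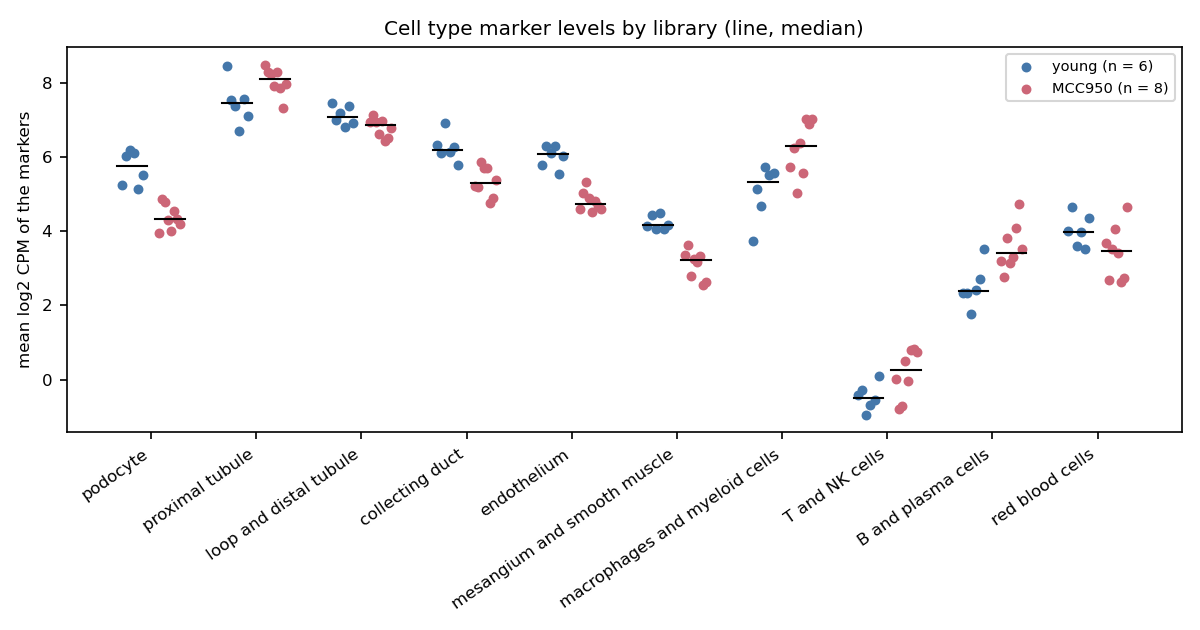
Each point is 1 library, placed by the mean log2 CPM of the markers of a cell type (vertical axis), with young libraries in blue, MCC950 libraries in red and a bar at the median. Podocyte, endothelial and mesangial markers lie lower in the 8 MCC950 libraries without overlap, proximal tubule and macrophage markers overlap and lie mostly higher, and young replicate 1 is the highest young library for proximal tubule and the lowest for macrophage markers.

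Tubule segments did not move together. Of the 10 collecting duct genes 9 were lower (median -0.94). Hsd11b2, the enzyme that shields the mineralocorticoid receptor from glucocorticoids, ranged from 171 to 381 CPM in the young libraries (median 242) and from 59.8 to 146 CPM in the MCC950 libraries (median 98.2) (log2 fold change -1.36 ± 0.23, adjusted p = 6.08e-04), and Scnn1g, the γ subunit of the epithelial sodium channel, had 47.7, 70.7 and 105 CPM in young libraries against 18.1, 32.2 and 43.2 CPM after MCC950 (log2 fold change -1.19 ± 0.22, adjusted p = 9.84e-04). Neither overlapped. With the macrophage marker level as a covariate 3 of the 9 calls in that list were made. In the loop and distal tubule 3 of 10 were lower, but 0 without MCC950 replicate 4, 1 without MCC950 replicates 6 or 7 or young replicates 1, 2 or 5, and 1 gene was called higher without MCC950 replicates 6, 7 or 8. The largest of these falls was that of Slc12a1, the sodium-potassium-chloride cotransporter of the thick limb (log2 fold change -0.89 ± 0.32, adjusted p = 0.0424), and it was lost without any of 9 libraries, whereas Umod, uromodulin, from the same cells, ranged from 1477 to 2353 CPM in the young libraries (median 1615) and from 1018 to 2096 CPM in the MCC950 libraries (median 1625) and did not pass the test (log2 fold change -0.22).

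In the proximal tubule 10 of 22 genes were higher and none was lower (median 0.60), without a gene whose groups did not overlap. Cubn, cubilin, the endocytic receptor for filtered protein, ranged from 24.4 to 88.0 CPM in the young libraries (median 39.8) and from 58.5 to 122 CPM in the MCC950 libraries (median 93.8) (log2 fold change 1.05 ± 0.25, adjusted p = 0.00572). Pck1, of gluconeogenesis, had 116, 173 and 293 CPM in young libraries against 231, 351 and 598 CPM after MCC950 (log2 fold change 0.98 ± 0.25, adjusted p = 0.0074), and Hnf4a, the nuclear receptor that sets proximal tubule identity, was higher too (log2 fold change 0.92 ± 0.19, adjusted p = 0.00238), as was the glucose transporter gene Slc5a2 (log2 fold change 0.88 ± 0.20, adjusted p = 0.0039). Lrp2, megalin, the partner of cubilin, did not pass the test (log2 fold change 0.66 ± 0.26, adjusted p = 0.067), but did without MCC950 replicate 7 or young replicate 1. The count of 10 fell to 6 when MCC950 replicates 1 or 5 or young replicates 2, 3, 4 or 6 were left out, and rose to 15 without young replicate 1, the young library with the most proximal tubule RNA.

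Beyond these lists, the largest rises with an average of at least 2 CPM and no overlap, immunoglobulin genes set apart, were those of Cd5l and Fcna, described with the macrophage genes, and of 8 others. Serpina1a, Serpina1d and Serpina1f belong to the α1-antitrypsin family of serine protease inhibitors on chromosome 12. Serpina1f ranged from 0.249 to 0.998 CPM in the young libraries (median 0.527) and from 6.19 to 18.2 CPM in the MCC950 libraries (median 7.44) (log2 fold change 4.08 ± 0.38, adjusted p = 1.56e-05), Serpina1a had 0.142, 0.432 and 0.665 CPM in young libraries against 4.27, 4.86 and 17.4 CPM after MCC950 (log2 fold change 4.18 ± 0.50, adjusted p = 5.32e-05) and Serpina1d rose less (log2 fold change 2.49 ± 0.41, adjusted p = 4.93e-04). MCC950 replicates 1 and 5 were the highest for Serpina1f. Slpi, secretory leukocyte protease inhibitor, ranged from 0.218 to 0.691 CPM in the young libraries (median 0.346) and from 1.80 to 10.9 CPM in the MCC950 libraries (median 3.90) (log2 fold change 3.69 ± 0.49, adjusted p = 9.92e-05). A pair of coagulation genes that hepatocytes also make were higher: Fgg, the fibrinogen γ chain, had 0.710, 1.16 and 2.18 CPM in young libraries against 2.73, 4.89 and 31.5 CPM after MCC950 (log2 fold change 2.68 ± 0.57, adjusted p = 0.0029), and F10, factor X, was at 0.177, 0.782 and 0.847 CPM in young libraries against 1.32, 2.78 and 9.42 CPM after MCC950 (log2 fold change 2.51 ± 0.47, adjusted p = 0.00118). Slc22a13, an organic anion and urate transporter of the kidney tubule, and Mettl7a2, a methyltransferase-like protein, completed the non-immune rises (log2 fold change 2.77 ± 0.44, adjusted p = 3.79e-04, and log2 fold change 2.61 ± 0.25, adjusted p = 1.81e-05). Every one of these levels was low, under 32 CPM in any library.

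The α1-antitrypsin genes are shown by their promoters since Serpina1a to Serpina1d and Serpina1f all had positive fold changes (1.38 and 3.59 on the log2 scale for Serpina1b and Serpina1c). Their copies are also so alike that counts can pass from one to another. No fold change is given for Serpina1e. Over GENCODE transcripts, 67.4% of the 50-base words of Serpina1a occur in another gene (57.5% in Serpina1c alone), and for Serpina1d it is 50.9%, so their single values are uncertain. Mettl7a2 (65.1%) and Slc22a13 (36.0%, a pseudogene) share words in the same way. In the promoter windows of RefSeq (GRCm38.p6), Serpina1a to Serpina1e hold 1 identical run of 59 bases, in capitals below with up to 20 bases on each side.
Serpina1a (chr12:103863601-103863699, - strand): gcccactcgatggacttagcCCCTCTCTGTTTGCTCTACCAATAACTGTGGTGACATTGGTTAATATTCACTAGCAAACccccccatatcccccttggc
Serpina1b (chr12:103738176-103738274, - strand): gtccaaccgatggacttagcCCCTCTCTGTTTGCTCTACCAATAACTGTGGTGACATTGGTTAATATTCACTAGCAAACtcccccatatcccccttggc
Serpina1c (chr12:103904938-103905036, - strand): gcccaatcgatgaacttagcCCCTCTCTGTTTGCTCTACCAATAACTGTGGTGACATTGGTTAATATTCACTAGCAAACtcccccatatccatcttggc
Serpina1d (chr12:103773610-103773708, - strand): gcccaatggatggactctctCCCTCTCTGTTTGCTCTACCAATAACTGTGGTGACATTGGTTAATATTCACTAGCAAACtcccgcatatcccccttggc
Serpina1e (chr12:103956936-103957034, - strand): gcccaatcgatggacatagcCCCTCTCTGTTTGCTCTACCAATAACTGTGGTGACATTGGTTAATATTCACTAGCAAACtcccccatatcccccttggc
The promoter of Serpina1f does not hold that run, and its longest match to any piece of it is 7 bases.

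**Figure D4:**
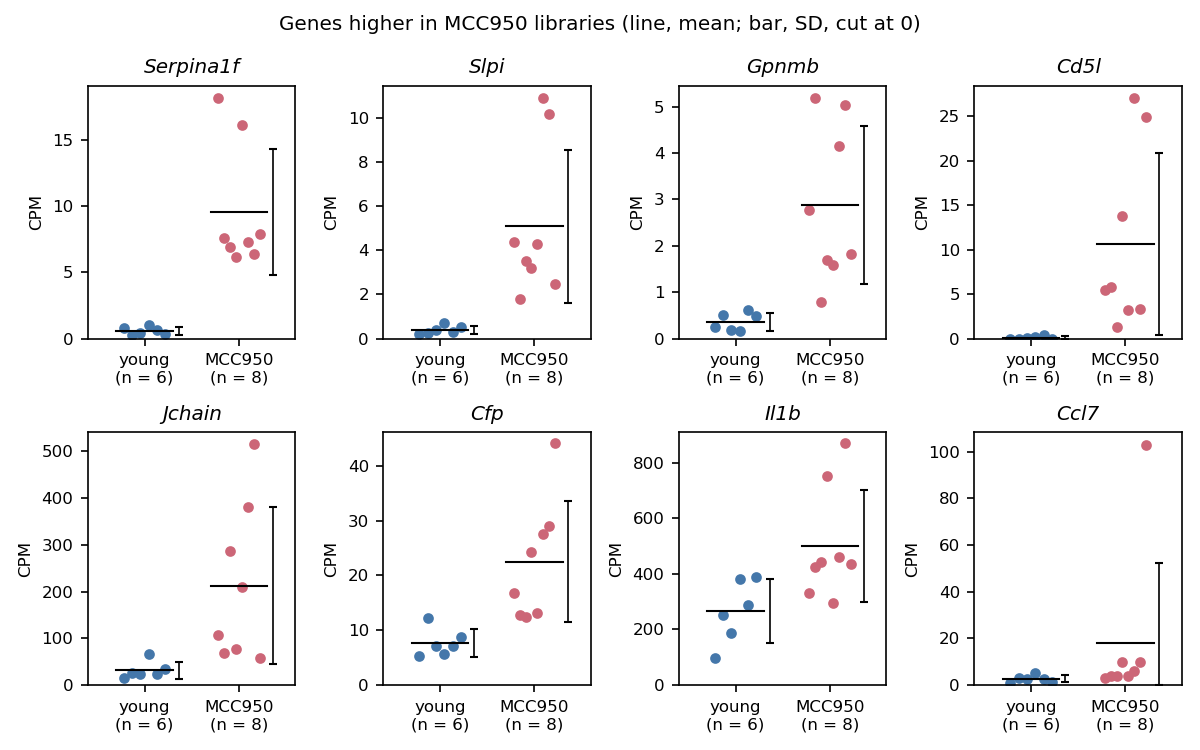
Each point is 1 library, with CPM on the vertical axis from 0, young libraries in blue and MCC950 libraries in red, a line at the mean and a bar of 1 SD cut at 0. Serpina1f, Slpi, Gpnmb, Cd5l and Cfp lie higher in all 8 MCC950 libraries, Jchain and Il1b overlap, and Ccl7 has 1 MCC950 library (replicate 8) far above the rest.

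The largest falls under the same conditions were partly podocyte genes (Thsd7a and Sema3e, above) and partly genes outside the lists. Nebl, nebulette, an actin-binding protein, ranged from 2.48 to 8.85 CPM in the young libraries (median 5.74) and from 0.583 to 2.17 CPM in the MCC950 libraries (median 0.973) (log2 fold change -2.46 ± 0.32, adjusted p = 9.83e-05). Corin, the protease that activates atrial natriuretic peptide, had 4.60, 6.91 and 12.9 CPM in young libraries against 0.223, 1.43 and 2.46 CPM after MCC950 (log2 fold change -2.42 ± 0.40, adjusted p = 5.31e-04). Gata5, a zinc finger transcription factor, ranged from 4.54 to 10.1 CPM in the young libraries (median 8.08) and from 1.14 to 2.19 CPM in the MCC950 libraries (median 1.64) and had the smallest adjusted p of them (log2 fold change -2.25 ± 0.18, adjusted p = 5.80e-06). Flrt2, a ligand of UNC5 receptors, Nrip2, a nuclear receptor partner, and a gene without a name in the tables used (Entrez number 100862094) completed the set, with log2 fold changes of -2.13, -2.07 and -2.16. The ATP8 gene of the mitochondrial genome was also among them and is described with its neighbours.

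Immunoglobulin genes were the list with the highest median fold change. Of 260 such genes in the files 162 could be tested, 105 were higher and none was lower, with a median of 2.51. The filter on low counts can pass a gene on its MCC950 libraries alone. Igkv4-58 had 3 counts in the young libraries together against 1774 in the MCC950 libraries. The counts of calls and the median thus depend in part on which segments passed. Summed over all 260, tested or not, immunoglobulin genes came to 432 to 1349 CPM in young and 2098 to 16680 CPM in MCC950 libraries, so the groups did not overlap. The 3 largest rises without overlap and with an average of at least 2 CPM were those of Igkv6-20 (0.0354, 0.127 and 0.245 CPM in young libraries against 0.758, 7.81 and 24.1 CPM after MCC950), Ighv1-53 (1.54, 2.63 and 3.45 CPM in young libraries against 6.43, 31.7 and 662 CPM after MCC950) and Igkv4-63 (0, 0.105 and 0.653 CPM in young libraries against 1.40, 3.24 and 36.3 CPM after MCC950), with log2 fold changes of 6.06, 5.53 and 5.49 (adjusted p = 3.65e-04, 0.00176 and 0.00144). Igkv4-58 had the largest of the list (log2 fold change 7.60 ± 1.61, adjusted p = 0.0028) but overlapped. The spread within the MCC950 group was wide, with the highest Ighv1-53 value in replicate 7 and the lowest in replicate 2, and 64.1% of the 50-base words of Igkv6-20 occur in another segment. With at least 10 counts required in every library, 19 of the list were higher, beside 2376 of the 13796 genes tested in that setting. Of 12 markers of B and plasma cells 4 were higher (Jchain, Mzb1, Tnfrsf17 and Derl3), which plasma cells express. Jchain, the joining chain of polymeric antibody, ranged from 15.1 to 65.4 CPM in the young libraries (median 25.4) and from 58.7 to 515 CPM in the MCC950 libraries (median 158) (log2 fold change 2.77 ± 0.54, adjusted p = 0.00169), Mzb1, a chaperone of immunoglobulin, had 0.708, 1.52 and 3.09 CPM in young libraries against 3.01, 6.91 and 25.5 CPM after MCC950 (log2 fold change 2.57 ± 0.49, adjusted p = 0.00145), with 75.7% of its 50-base words also in Spata24, and Tnfrsf17, BCMA, the plasma cell survival receptor, was higher (log2 fold change 2.25 ± 0.54, adjusted p = 0.00601). Among T and NK cell genes 2 of 12 were higher, a share near the 16.0% of all genes tested. The count was 1 without MCC950 replicates 4, 7 or 8 or young replicates 3 or 4. Cd8b1 had the largest of these rises, at the limit of detection (0, 0.0686 and 0.265 CPM in young libraries against 0.0684, 0.430 and 1.10 CPM after MCC950).

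Macrophage and myeloid markers all had positive fold changes (16 of 16, median 0.77), but 2 passed the test, a share under the 16.0% of all genes tested. Cd5l, an apoptosis inhibitor secreted by tissue macrophages, had the largest rise of any gene named outside the immunoglobulins: 11 counts in all 6 young libraries together against 4395 in the 8 MCC950 libraries, or 0, 0.0354 and 0.363 CPM in young libraries against 1.32, 5.65 and 27.1 CPM after MCC950 (log2 fold change 7.16 ± 1.02, adjusted p = 1.84e-04). Gpnmb, a lysosomal membrane protein of lipid-laden macrophages, had 0.154, 0.366 and 0.605 CPM in young libraries against 0.781, 2.30 and 5.20 CPM after MCC950 (log2 fold change 3.04 ± 0.48, adjusted p = 3.86e-04). Neither overlapped. Fcna, ficolin A, a macrophage lectin of the complement pathway, came next among the rises (0, 0.170 and 1.23 CPM in young libraries against 1.83, 5.11 and 45.8 CPM after MCC950, log2 fold change 5.01 ± 0.97, adjusted p = 0.00149). The genes most used to identify macrophages did not pass it: Adgre1 (F4/80) ranged from 17.8 to 91.6 CPM in the young libraries (median 62.6) and from 33.4 to 128 CPM in the MCC950 libraries (median 75.4) (log2 fold change 0.33 ± 0.36, adjusted p = 0.507), Csf1r had a log2 fold change of 0.53 and C1qa of 0.70. The count of 2 became 4 to 6 without MCC950 replicates 3 or 5 or young replicates 4 or 6, and 16 with the proximal tubule level as a covariate.

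In the inflammasome list 4 of 16 were higher and 1 was lower, beside 16.0% and 16.2% of all genes tested. Nlrp3, the target of the drug, ranged from 7.08 to 42.7 CPM in the young libraries (median 24.3) and from 23.4 to 89.8 CPM in the MCC950 libraries (median 41.8), with a higher median after MCC950 and an adjusted p just over the threshold (log2 fold change 0.93 ± 0.35, adjusted p = 0.0518). It passed when MCC950 replicate 5, young replicate 4 or young replicate 6 was left out, and in DESeq2. MCC950 binds the NLRP3 protein, so the transcript is no measure of its action. Of the partners, Pycard (log2 fold change 0.28 ± 0.13, adjusted p = 0.105), Casp1 (0.37) and Gsdmd (0.23), the pore-forming target of caspase-1, did not pass the test. Pycard passed without MCC950 replicate 1. Of the cytokines that were higher, Il1b ranged from 96.9 to 390 CPM in the young libraries (median 270) and from 294 to 871 CPM in the MCC950 libraries (median 439) (log2 fold change 0.91 ± 0.31, adjusted p = 0.034), Il1a had 0.926, 1.83 and 2.53 CPM in young libraries against 1.71, 3.59 and 10.97 CPM after MCC950 (log2 fold change 1.44 ± 0.39, adjusted p = 0.011) and Il18 had 1.01, 1.62 and 1.92 CPM in young libraries against 1.61, 2.65 and 5.31 CPM after MCC950 (log2 fold change 0.94 ± 0.26, adjusted p = 0.0144). Il1rn, the antagonist of the IL-1 receptor, was higher as well (log2 fold change 1.20 ± 0.42, adjusted p = 0.0394). Txnip, the thioredoxin-binding protein that has been linked to NLRP3 activation, was lower (log2 fold change -0.35 ± 0.12, adjusted p = 0.0304). Only the calls of Il1a and Il18 among these stood when each library in turn was left out. That of Il1b was lost without MCC950 replicates 4 or 7 or young replicates 2 or 3, that of Il1rn without any of 9 libraries and that of Txnip without any of 5. Of the settings that left no library out, 5 ended the call of Il18 and 2 that of Il1a. Such settings ended the calls of Il1b, Il1rn and Txnip in 4, 3 and 4 cases. The count of 4 was 2 without MCC950 replicates 4 or 7 or young replicate 3. With the macrophage level as a covariate 0 of the list were higher and 5 lower, and with the proximal tubule level 13 were higher.

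Of 24 chemokines and receptors 4 were higher, a share near the 16.0% of all genes tested. In that list 1 was lower, a share under the 16.2% of all genes. The higher count was 7 without MCC950 replicate 3 or with all 3 groups in one fit and 17 with the proximal tubule level as a covariate, and with the macrophage level 2 were higher and 5 lower. Ccl7 and Ccl8, which attract monocytes, ranged from 0.899 to 5.22 CPM in the young libraries (median 2.71) and from 3.11 to 103 CPM in the MCC950 libraries (median 5.11) and from 0.109 to 1.75 CPM in the young libraries (median 1.23) and from 1.70 to 13.3 CPM in the MCC950 libraries (median 3.31) (log2 fold change 2.74 ± 0.89, adjusted p = 0.0283, and log2 fold change 2.25 ± 0.60, adjusted p = 0.0104), and for Ccl7 the highest value was that of MCC950 replicate 8 and the call was lost without young replicates 1, 2, 3 or 6. Cxcl13, which attracts B cells, had 0.726, 1.22 and 2.34 CPM in young libraries against 1.57, 5.65 and 8.19 CPM after MCC950 (log2 fold change 2.08 ± 0.35, adjusted p = 6.08e-04). With the podocyte level as a covariate its log2 fold change was 3.89, in a fit that can hardly separate that level from the group. Cx3cl1, fractalkine, was lower (log2 fold change -0.44 ± 0.10, adjusted p = 0.005). Complement gave 4 higher and 2 lower of 15, with 2 higher without young replicates 2 or 3. Cfp, properdin, the activator of the alternative pathway that myeloid cells secrete, ranged from 5.26 to 12.3 CPM in the young libraries (median 7.10) and from 12.4 to 44.1 CPM in the MCC950 libraries (median 20.6) and was the one without overlap (log2 fold change 1.55 ± 0.31, adjusted p = 0.00178). C4b was at 1.99, 3.89 and 5.30 CPM in young libraries against 4.28, 5.82 and 74.2 CPM after MCC950 (log2 fold change 2.04 ± 0.67, adjusted p = 0.0306), led by MCC950 replicate 8 and not called without young replicates 2, 3 or 6, and 35.2% of its 50-base words occur in its neighbour C4a. C1s1, a protease of the classical pathway, had the largest fall (log2 fold change -0.53 ± 0.18, adjusted p = 0.0324), lost without any of 8 libraries. Of 20 interferon-stimulated genes 0 were higher and 2 lower, with a median of -0.01, and 16 were lower with the macrophage level as a covariate. Of these genes, Ifi44 ranged from 7.26 to 12.1 CPM in the young libraries (median 9.69) and from 2.81 to 6.14 CPM in the MCC950 libraries (median 3.36) (log2 fold change -1.32 ± 0.21, adjusted p = 3.53e-04) and Rsad2, viperin, fell as well (log2 fold change -0.86 ± 0.19, adjusted p = 0.00404). None of 10 MHC class I and 7 class II presentation genes passed the test in edgeR or DESeq2, and at an unadjusted p under 0.05 there were 1 and 0. With the macrophage level as a covariate 7 and 6 were lower, with the proximal tubule level 7 and 6 were higher, and with all 3 groups in one fit 1 class I gene was higher. The class II members had a median of 0.44 with 6 of 7 positive.

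The 13 proteins encoded by the mitochondrial genome were all lower in direction, 10 with an adjusted p under 0.05 (median -0.84). ATP8, a small subunit of ATP synthase, ranged from 1345 to 4259 CPM in the young libraries (median 2771) and from 355 to 887 CPM in the MCC950 libraries (median 582) (log2 fold change -2.31 ± 0.26, adjusted p = 3.72e-05) and was the one without overlap. ND2, of complex I, had 28403, 65868 and 103350 CPM in young libraries against 20899, 27327 and 34676 CPM after MCC950 (log2 fold change -1.27 ± 0.25, adjusted p = 0.00177). COX1, the catalytic subunit of complex IV, ranged from 110060 to 436380 CPM in the young libraries (median 263960) and from 115970 to 202090 CPM in the MCC950 libraries (median 162570) and did not pass the test (log2 fold change -0.76 ± 0.29, adjusted p = 0.0567), but did without MCC950 replicate 3 or young replicate 1. The count was 5 without young replicate 5, the library with the highest mitochondrial share, 13 without young replicate 1 and 6 without a filter on low counts.

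The nuclear genes of the same complexes went the other way. Of 71 tested, 53 were higher and none was lower (median 0.43), 7 without overlap, and 35 or 34 were higher without young replicates 2 or 4. Ndufa12, an accessory subunit of complex I, had the largest rise at a low level (0.0384, 0.314 and 0.497 CPM in young libraries against 0.557, 0.943 and 1.30 CPM after MCC950, log2 fold change 1.58 ± 0.35, adjusted p = 0.00378), and Atp5k, a subunit of ATP synthase, rose by less (log2 fold change 0.89 ± 0.23, adjusted p = 0.00818). Atp5b, the catalytic β subunit, was not among them (log2 fold change 0.21 ± 0.12, adjusted p = 0.219). Cytosolic ribosomal proteins were higher in 67 of 75 and lower in none (median 0.62), 14 without overlap. Rpl37a, of the large subunit, ranged from 2.55 to 3.71 CPM in the young libraries (median 3.18) and from 4.06 to 7.78 CPM in the MCC950 libraries (median 6.69) (log2 fold change 1.04 ± 0.15, adjusted p = 1.86e-04), and Rps28, of the small subunit, had 1.28, 2.10 and 3.58 CPM in young libraries against 3.24, 4.48 and 5.32 CPM after MCC950 (log2 fold change 1.00 ± 0.19, adjusted p = 0.00133). The list summed to 1443 to 1952 CPM in young and 1884 to 2729 CPM in MCC950 libraries. Processed pseudogenes of ribosomal proteins can share their reads, and 40.1% of the 50-base words of Rpl37a occur in another gene.

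Promoters of these genes are shown because the members moved together and share sequence. The motifs searched on both strands in the 250 bases before and 50 after a start were the ETS core CTTCCG, GCATGCGC as part of an NRF1 site, the homeodomain core TAATTA and the TATA box TATAAA. Of the 55 ribosomal protein promoters from RefSeq, 69.1% held the ETS core, of 59 respiratory chain promoters 37.3%, and of all 27025 promoters 17.2% (29.2% of the 11818 of tested genes). The NRF1 part was in 15.3% of respiratory chain promoters, 2.81% of all and 4.89% of those of tested genes. Of 37 podocyte promoters 13.5% held the ETS core and none held TAATTA, which was in 5.32% of all and 2.68% of those of tested genes. Matches are in capitals in the 100 bases before and 10 after the start.
Rpl37a (chr1:72711160-72711269, + strand): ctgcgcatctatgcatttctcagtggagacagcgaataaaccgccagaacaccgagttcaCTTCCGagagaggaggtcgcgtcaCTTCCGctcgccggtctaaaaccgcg
Rps28 (chr17:33824553-33824662, - strand): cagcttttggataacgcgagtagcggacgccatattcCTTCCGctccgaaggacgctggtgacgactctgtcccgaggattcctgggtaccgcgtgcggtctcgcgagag
Ndufa12 (chr10:94198935-94199044, + strand): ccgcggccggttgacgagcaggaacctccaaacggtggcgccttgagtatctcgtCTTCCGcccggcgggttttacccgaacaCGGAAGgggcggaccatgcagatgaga
Atp5k (chr5:108434390-108434499, - strand): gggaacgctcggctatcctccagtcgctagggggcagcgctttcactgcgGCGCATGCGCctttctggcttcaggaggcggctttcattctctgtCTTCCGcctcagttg
In Atp5k the NRF1 part lies on both strands at 1 place, so the capitals run on for 10 bases.

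Transcript length moved with these results. Genes were cut into 10 bins of equal size by transcript length. In the bin of the shortest (up to 1215 bases) 40.7% were higher and 4.17% lower, and in that of the longest (from 6615 bases) 2.92% were higher and 34.5% lower. Within each library, the slope of the log2 level on the doubling of length was 0.08 to 0.17 in young and -0.13 to 0.00499 in MCC950 libraries, without overlap. Ribosomal protein and respiratory chain transcripts are short (median 1106 and 1046 bases against 3223 for all genes). With the length trend removed, a setting chosen after seeing the data, 37 ribosomal and 16 respiratory chain genes were higher, with medians of 0.37 and 0.15 over 75 and 71 tested, and none was lower. The slit diaphragm then had 9 of 10 lower, the endothelium 13 of 13 and the proximal tubule 9 of 22 higher. Why length went with the group was not tested.

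**Figure D5:**
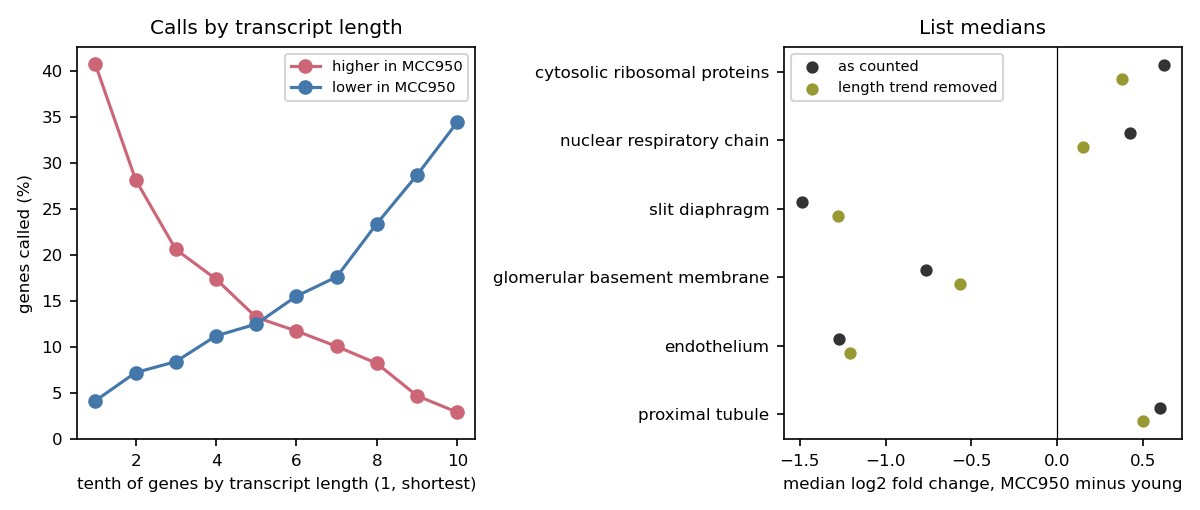
The left panel gives the share of genes called higher (red) or lower (blue) in MCC950 libraries, in percent, for 10 bins of genes by transcript length, and the right panel the median log2 fold change of 6 lists as counted (black) and with the length trend removed (olive). The shares cross from 40.7% higher in the shortest bin to 34.5% lower in the longest, and the medians of the ribosomal and respiratory chain lists move toward 0 while those of the slit diaphragm and endothelium stay below -1.

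The lists of ageing and stress differed in the shares called. Their counts stand beside 16.0% higher and 16.2% lower over all genes tested. Among cell cycle inhibitors and senescence genes 3 of 17 were higher and 4 lower. The higher count was 1 without MCC950 replicate 1 or young replicates 2, 3 or 4, 5 without MCC950 replicate 2 or young replicate 6, 6 in DESeq2 and 8 with all 3 groups in one fit. Cdkn2d, p19, ranged from 7.01 to 8.60 CPM in the young libraries (median 7.51) and from 9.52 to 12.01 CPM in the MCC950 libraries (median 10.4) without overlap (log2 fold change 0.45 ± 0.08, adjusted p = 7.34e-04), Cdkn2c, p18, had the largest rise that passed (log2 fold change 0.50 ± 0.18, adjusted p = 0.0475), a call lost without any of 10 libraries, and Igfbp3, which binds IGF, fell most (log2 fold change -0.98 ± 0.28, adjusted p = 0.0158). Cdkn1a, p21, did not pass the test (log2 fold change 0.13). Of 11 epithelial injury genes 2 were higher and 1 lower. Havcr1, KIM-1 of the injured proximal tubule, was higher at a low level (0.192, 0.451 and 1.33 CPM in young libraries against 0.319, 1.63 and 3.05 CPM after MCC950, log2 fold change 1.58 ± 0.50, adjusted p = 0.0255). Cd44, which the study stained to label activated parietal cells, was higher too (log2 fold change 0.82 ± 0.25, adjusted p = 0.0234), and which cells gave its RNA was not tested. Pax2, a factor of parietal and developing tubule cells, was lower (log2 fold change -0.43 ± 0.14, adjusted p = 0.0306). Havcr1 was not called without young replicates 2, 3 or 4, nor Pax2 without young replicates 2, 3 or 5. Of 12 proliferation genes 3 were higher, led by Birc5, survivin (log2 fold change 1.12 ± 0.33, adjusted p = 0.018), and of 16 genes of fatty acid oxidation 3 were higher, with Acaa2 the largest of them (log2 fold change 0.58 ± 0.15, adjusted p = 0.0102), a count that was 8 without young replicate 1 and 1 without young replicates 2, 3, 4 or 6. In the interstitial matrix Fn1, fibronectin, was higher (log2 fold change 0.75 ± 0.19, adjusted p = 0.00753) and Col1a2, of type I collagen, lower (log2 fold change -1.15 ± 0.25, adjusted p = 0.00323), 1 and 2 of 14, and 2 were higher when any young library was left out. Heat shock and chaperone genes gave 2 higher and 1 lower of 12, with Hspd1, the mitochondrial chaperonin, up (log2 fold change 0.46 ± 0.13, adjusted p = 0.0169, lost without young replicate 4) and Hspb1, the small heat shock protein of actin, down (log2 fold change -1.29 ± 0.27, adjusted p = 0.0026). Pseudogenes hold 42.8% of the 50-base words of Hspd1 and 51.7% of those of Hspb1, so both values are uncertain. Of 17 immediate early genes, which respond to tissue handling, only Klf4 was lower (log2 fold change -0.66 ± 0.22, adjusted p = 0.0331, lost without any of 8 libraries, while 3 were lower without MCC950 replicate 7 or young replicate 1), of 16 clock genes only Clock (log2 fold change -0.39 ± 0.09, adjusted p = 0.00406, lost with the length trend removed), and of 4 red blood cell genes none passed in edgeR or DESeq2, nor at an unadjusted p under 0.05, though 2 were lower with the length trend removed and 1 without MCC950 replicate 8.

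The genes with the highest average CPM (not per length) outside the mitochondrial genome whose 95% interval lay within 0.5 of 0 on the log2 scale, out of 5806 such genes, included Eef1a1, an elongation factor, Atp5b, Itm2b, an integral membrane protein, and Junb. Itm2b had 648, 667 and 765 CPM in young libraries against 532, 636 and 751 CPM after MCC950 (log2 fold change -0.10 ± 0.10, adjusted p = 0.428), and Junb had a wider spread (355, 715 and 814 CPM in young libraries against 410, 619 and 848 CPM after MCC950). Eef1a1 was past the threshold inside that interval (log2 fold change 0.28 ± 0.10, adjusted p = 0.0436), though not without any of 11 libraries, and 59.2% of its 50-base words occur in another gene.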

How the data were processed

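mRNA of nephrin-selected cells was sequenced, and the authors deposited raw read counts per gene and library. Per the labels and the submitters' processing notes, reads were trimmed with Trim Galore, aligned with Bowtie2 to mm10 (GRCm38) and counted with featureCounts. Versions, annotation, strand setting and the treatment of reads with several matches are not given in the sources used here. A normalized table of the series was not used. Of 27179 genes, 1886 had no name in the tables used.

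The 8 MCC950 and 6 young libraries were fitted in edgeR 4.0.16 (R 4.3.3) with TMM factors, its default filter on low counts and no covariate, by the quasi-likelihood test with Benjamini-Hochberg adjustment over all genes tested. Values after ± are standard errors unless given as SD. Alternatives were DESeq2 1.42.0, other scalings, filters and covariates, the replicate block, and each library left out. Permutation tests used scipy 1.17.1. On simulated counts of 15677 genes with 200 changed, the fit called 159 of them and 10 others.

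Members and lists were chosen with earlier results of these data known. Named are the 10 largest rises and falls with an average log2 CPM of at least 1 and no overlap (immunoglobulin genes apart, the 3 largest of them), any list member with at least the largest called rise and fall, and the 5 genes of highest average CPM whose 95% interval lay within 0.5 of 0. No libraries were duplicates: between any 2 libraries of a group, chi-square over its degrees of freedom was at least 17.7. One or more items are not reported here.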

Additional observations from a re-analysis of the deposited data

Results flagged for a closer look

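Library values within 1 group were searched by Dixon's test for named genes, summed gene lists, the mitochondrial share and the other counts. Of 322 such sets, 10, all of named genes, held a library whose gap to its neighbour was wide for the range of its group, and chance gives about 1 in 20. Values here are log2 CPM. Among young libraries, replicate 1 was lowest for Ccl8 (-2.68, the next -0.10), replicate 3 was lowest for Ren1 (3.28, the next 3.83) and Eef1a1 (9.25, the next 9.46), and replicate 5 was lowest for Lmx1b (-4.42, the next -0.35). Young replicate 1 was also the library with the lowest macrophage marker level of its group. Among MCC950 libraries, replicate 8 was highest for Ccl7 (6.69, the next 3.31) and C4b (6.21, the next 3.86), and replicate 3 was highest for Tek (4.38, the next 3.81) and Flt1 (5.01, the next 4.47), both receptors of endothelium. Replicate 7 was highest for Fgg (4.98, the next 2.54), and replicate 2 was lowest for Rpl37a (2.04, the next 2.55).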

How the results depend on the processing

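The counts of genes moved most with the podocyte marker level as a covariate (5 higher and 8 lower) and at the study's own threshold (535 and 685). Over leaving out each library in turn they ran from 1848 to 2893 higher and from 2080 to 2587 lower, the lowest without young replicates 2 and 3 and the highest without young replicates 1 and 6. The difference in mitochondrial share ran from -16.4 to -10.7 percentage points (exact permutation p from 0.00155 to 0.0233) and that in other counts from 10748875 to 12611821 (exact permutation p from 0.00117 to 0.00155). Under the other planned settings the counts stayed within 1.5 times: DESeq2 called 2879 higher and 2932 lower, with 2504 and 2556 shared, upper-quartile scaling 2076 and 2805, and thinning to equal depth 2100 and 2250. With the other covariates the genes called changed more than their counts did. The macrophage level gave 2882 higher and 2946 lower, with 1722 and 1776 shared. The proximal tubule level gave 3065 and 2595, with 1719 and 1993 shared. Removing the length trend, chosen after seeing the data, gave 1848 and 2064, with 1385 and 1800 shared, and removing length and GC trends 1909 and 1920. Of 112 called genes that are named, 95 kept the call without any 1 library. Replicate numbers do not pair the mice: same-numbered libraries deviated together with correlations of -0.02 to 0.45, and not every library correlated best with its own number. The replicate block called 2878 higher and 2665 lower. With it 17 proximal tubule, 9 fatty acid oxidation and 8 chemokine genes were higher, and 5 interferon-stimulated and 5 mitochondrially encoded genes were lower.

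These log2 fold changes changed sign, and the cause was not tested. With the podocyte level as a covariate they were Junb 0.68, Lmx1b 0.61, Ezr -0.0198, Havcr1 -1.21, C1s1 0.42, Cdkn2c -0.17, Col1a2 0.25, Clock 0.0204, Nphs1 0.35, Kirrel 0.22, Crb2 0.0858, Wt1 0.0379, Foxd1 0.37, Tcf21 0.29, Foxc2 0.19, Klf15 -0.0997, Nes 0.0969, Cdkn1c 0.55, Pla2r1 0.14, Vegfa 0.11, Nid1 0.11 and Itga8 0.25. With the macrophage level they were Umod 0.0136, Adgre1 -0.87, Csf1r -0.65 and C1qa -0.59, and with the proximal tubule level Atp5b -0.0328, Junb 0.40 and Klf15 -0.00951. With all 3 groups in one fit, Junb 0.0182 changed sign. With at least 10 counts required in every library, Junb 0.00343 changed sign. Without a filter on low counts, Junb 0.0143 changed sign. Without 1 library, Junb ran from -0.12 to 0.0711. Counts outside the mitochondrial genes were lower in every young library, which limits the precision of genes with few counts.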

Other observations

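Of the 500 genes that varied most over the 14 libraries, 157 were immunoglobulin genes, and the first principal component of these 500 took 49.8% of the variance and the second 9.16%. They made up 40 of the 50 genes that weighed most on the first. Without them it took 44.3% and the groups still lay apart on it.

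With the podocyte marker level as a covariate, 13 genes were called, named here after their values were seen. The 5 higher were Cxcl13, Mettl7a3 and the immunoglobulin segments Ighv13-2, Ighv1-58 and Ighv8-12. The 8 lower were Eprn, Rgs7bp, Esm1, Cldn16, Mir703, Gt(ROSA)26Sor, Gprc5a and Igf2, and 7 of these 8 were also lower without the covariate.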
